A study of Mus musculus with 6 samples.

Results

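The genes described here are a list of 40 that respond to low oxygen or carry out glycolysis, in mouse lung cancer cells with and without added miR-34a. They were grouped by role into 6 genes of oxygen sensing and the hypoxia-inducible factors (HIFs), 16 HIF targets outside glycolysis, and 18 glycolytic enzymes and regulators. Of the 40, 35 had a probe set of their own, among 12393 genes measured. Ankrd37, Gpi1, Pfkfb4 and Eno1 had no probe set listed under their symbol, and those of Bnip3l were shared with another symbol, so these 5 were not analysed here.

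Total RNA of 6 samples of 344SQ, a metastatic mouse lung adenocarcinoma line with high Zeb1, was hybridised to Affymetrix arrays. In 3 samples the cells carried a control vector and in 3 they overexpressed miR-34a from an inducible construct. The labels describe culture in RPMI medium with serum, but the design text says that the RNA came from primary tumors in injected mice, and the miR-34a titles also say tumors. All samples come from this 1 line, and the sex and age of the mice, the tumor site, the promoter, the inducer and its timing were not stated in the labels used. The p-values measure the spread between these samples, because nothing in the labels says which mouse or culture each came from.

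HIFs are dimers of an oxygen-labile alpha subunit, such as HIF-1α, and a stable beta subunit. When oxygen is present, prolyl hydroxylases mark the alpha subunit for degradation, so much of its control acts on the protein and not on its RNA. Stabilised HIF enters the nucleus and switches on genes for blood vessel growth, pH control, mitochondrial turnover and nearly every step of glycolysis. miR-34a is a p53-induced microRNA that represses mRNAs pairing with its seed, and Ldha has been published as one of its targets.

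The mature microRNA is shown because it is the agent that separates the groups, with its seed (bases 2 to 8) in capitals. RefSeq places it at chr4:150068473-150068494 on the plus strand of GRCm38.p6.
mmu-miR-34a-5p: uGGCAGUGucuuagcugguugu

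The deposited intensities had medians between 466.7 and 484.2 per array. Vector array 1 stood apart in Pearson correlation over all measured genes, with 1 probe set per gene. Its correlation with the other vector arrays was 0.9686 and 0.9722. Those 2 arrays had 0.9930 and the miR-34a arrays 0.9918 to 0.9955 among themselves. Of the epithelial and line markers, Krt8 was present in every sample at 19705.0 to 22834.0 and Zeb1 at 1382.5 to 1677.2. Epcam and Cdh2 were lower in vector 1 (304.8 and 62.0) than in the other samples (950.7 to 1463.4 and 976.5 to 2053.6). Krt19 was higher in vector 1 (19738.8) than in the others (11682.4 to 12905.4). Markers of host cells were also present. The 8 fibroblast markers summed to 12071 in vector 1 and to 34075 to 49785 in the other 5 samples, and the 8 macrophage markers to 11786 to 21223 with vector (vector 1 lowest) and 21729 to 25297 with miR-34a, without overlap. Of the macrophage markers, C1qb rose 2.19-fold and Mrc1 fell 1.99-fold. The 8 skeletal muscle markers summed to 3021 to 4691 with vector and 4591 to 7896 with miR-34a, with Acta1 at 1486.0 and 2617.2 in miR-34a 1 and 3 and 168.9 to 582.9 elsewhere. The 8 neutrophil markers summed to 10231 in vector 1, 3415 and 3890 in the other vector samples and 2464 to 2811 with miR-34a. RNA quality was read as log2 of the 3′ over the 5′ control, which overlapped between groups for Actb (0.34 to 0.60 with vector, 0.54 to 0.59 with miR-34a). For Gapdh it did not (-0.05 to 0.07 and 0.10 to 0.12). The part of these differences in the results was not tested, and calls that change without vector 1 are given beside each gene.

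Of the 35 genes, 5 fell with miR-34a and none was called higher. Hif1a, the oxygen-labile subunit of HIF-1, fell 1.30-fold. Adm, a vasodilator peptide, fell 2.87-fold and Ddit4, an inhibitor of mTORC1, fell 2.20-fold. Hk2, an inducible hexokinase at the entry of glycolysis, fell 1.69-fold and Pgk1, an ATP-forming enzyme of its lower part, fell 1.23-fold. These 5 of 35 genes are 14.3%, beside 5.25% of all genes called lower and 6.50% called higher (limma adjusted p under 0.05, on log2(intensity + 16), which understates the change of dim genes). At an unadjusted limma p under 0.05, 10 of the listed genes were lower and 3 higher, beside 11.3% and 17.0% of all genes. The count of 5 became 0 without miR-34a 1 or miR-34a 3, 2 without miR-34a 2 and 3 without vector 3, where all genes called lower were 1.08%, 1.03%, 2.94% and 2.56%. Without vector 1, 4 were lower and 2 (Car12 and Pfkm) higher.

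The remaining 30 genes were not called. Of the 35, 23 had a log2 change below 0 and 31 changed by less than 0.5 in size, with a median of -0.08 against 0.02 over all genes. Among all genes called, 55.3% were higher, a share that became 43.1% after quantile normalization and 31.3% after median centring. In 12 of 35 genes every miR-34a sample lay under every vector sample, beside 14.0% of all genes. In 2 every miR-34a sample lay above, beside 20.8% of all genes. In these bulk RNA samples, fewer cells of a type and less RNA per cell cannot be told apart.

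**Figure D1:**
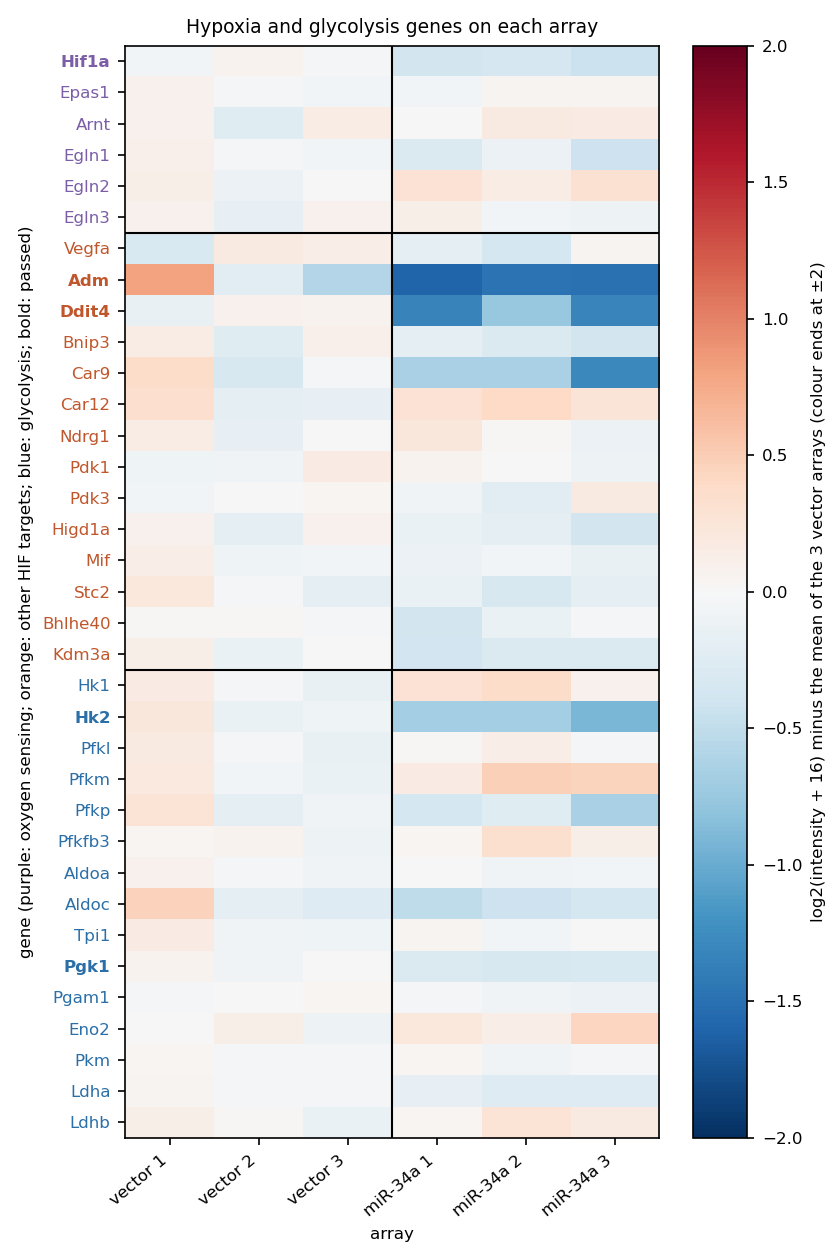
Level of each of the 35 genes on each array as log2(intensity + 16) minus the mean of the 3 vector arrays, with blue lower and red higher and genes that passed the test in bold. Adm, Ddit4, Car9 and Hk2 are the darkest rows on the miR-34a side, and vector 1 is the highest vector array in 24 of the 35 rows.

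**Figure D2:**
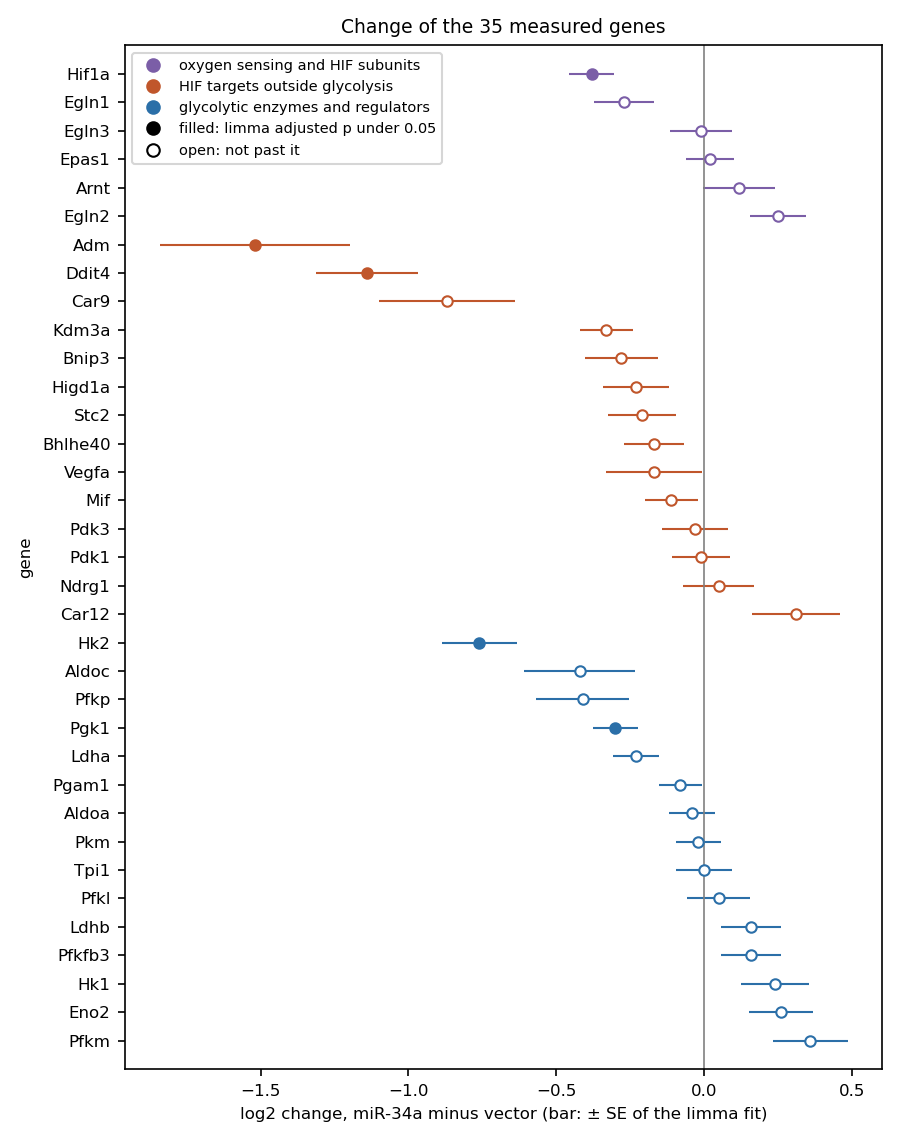
Log2 change from vector to miR-34a for each gene with its standard error, filled where the limma adjusted p was under 0.05 and coloured by role. The changes run from -1.52 for Adm to 0.36 for Pfkm, and all 5 filled points lie below 0.

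Among the 6 genes of oxygen sensing, Hif1a was the one called, and the group median was 0.00. The chosen Hif1a probe set, its brightest, read 7145.9, 7795.2 and 7302.8 in vector samples 1, 2 and 3 and 5734.8, 5848.1 and 5514.9 in miR-34a samples 1, 2 and 3. The groups did not overlap. Its log2 mean went from 12.86 ± 0.0652 to 12.48 ± 0.043 (SD, n = 3 each), a change of -0.38 ± 0.0773 (SE, limma adjusted p = 0.0258). The call held without vector 1 (adjusted p = 0.018) and was lost when any other sample was left out (limma adjusted p from 0.0575 to 0.113), with changes from -0.40 to -0.34.

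Hif1a had 4 probe sets, all lower on average by amounts that differed. The next brightest read 2006.2, 2260.7 and 1908.6 with vector and 1237.6, 1287.0 and 1184.7 with miR-34a, a change of -0.73 ± 0.0927 (SE, limma adjusted p = 0.00589 over 22626 probe sets). The third read 926.8, 615.8 and 1000.0 against 214.5, 201.0 and 220.1, a 3.71-fold fall of -1.89 ± 0.175 on the log2 scale (limma adjusted p = 0.00259). Both kept their call with each sample left out in turn. The dimmest overlapped between groups, at 152.4 to 173.7 with vector and 133.1 to 152.7 with miR-34a, and its change of -0.16 was not called (limma adjusted p = 0.29). The size of the Hif1a change thus ranged from -0.16 to -1.89 with the probe set read. The part of the transcript that each probe set covers was not analysed here.

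**Figure D3:**
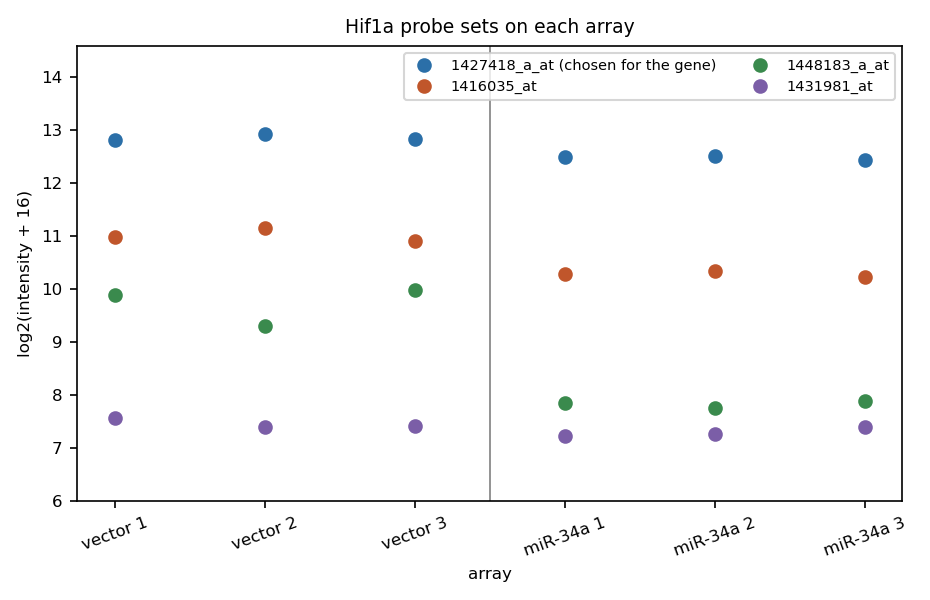
The 4 Hif1a probe sets on each array, as log2(intensity + 16). The gap between vector and miR-34a arrays is -0.38 in the brightest probe set, -0.73 and -1.89 in the next 2, and -0.16 in the dimmest.

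Epas1 encodes HIF-2α, the second oxygen-labile subunit. It was dim, at 123.2, 111.8 and 109.7 with vector and 110.1, 119.2 and 120.4 with miR-34a, and the groups overlapped (change 0.02 ± 0.0819 SE, limma adjusted p = 0.91). Arnt, the stable beta subunit that both alpha subunits bind, read 476.5, 374.1 and 494.6 against 448.5, 505.5 and 502.9. Its groups overlapped too (0.12 ± 0.122 SE, limma adjusted p = 0.577), and its second probe set had the opposite sign, at -0.06.

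The 3 prolyl hydroxylases did not share a direction. Egln1 (PHD2), the main oxygen sensor of most cells, read 4552.7, 4151.1 and 4070.1 with vector and 3477.7, 3916.5 and 3188.5 with miR-34a. Every miR-34a sample was lower, but the change of -0.27 did not pass (limma adjusted p = 0.131), nor did that of its second probe set, -0.43 (0.0609). Egln2 (PHD1) read 2076.6, 1772.8 and 1912.4 against 2360.9, 2116.2 and 2376.4, higher in every miR-34a sample, with a change of 0.25 that was not called (limma adjusted p = 0.136). Egln3 (PHD3), itself a HIF target, changed by -0.01 on the chosen probe set and by -0.26 on the other, without a call on either.

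The 14 measured HIF targets outside glycolysis had 2 (14.3%) called lower and none higher, beside 5.25% and 6.50% of all genes. At an unadjusted limma p under 0.05, 4 were lower and none higher (all genes 11.3% and 17.0%). Of the 14, 12 (85.7%) had a change below 0, also after quantile normalization, and 13 (92.9%) did after median centring, beside 45.7%, 53.0% and 62.6% of all genes. Their median change was -0.19. In 4 of the 14 every miR-34a sample lay under every vector sample, and in none above, beside 14.0% and 20.8% of all genes. Relative to the vector mean, the median over these genes was 0.13, -0.10 and 0.01 in vector samples 1, 2 and 3 and -0.16, -0.25 and -0.16 in the miR-34a samples, so every miR-34a sample was below every vector sample.

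Adm, which encodes the vasodilator adrenomedullin, had the greatest change of the list. It read 1878.5, 922.1 and 701.5 with vector and 341.2, 374.6 and 368.8 with miR-34a. The groups did not overlap, and vector 1 was far above the other vector samples. The log2 mean went from 10.08 ± 0.723 to 8.56 ± 0.0691 (SD, n = 3 each), a change of -1.52 ± 0.322 (SE, limma adjusted p = 0.0282). Without vector 1 it was -1.12 (limma adjusted p = 0.00216). The call was lost without miR-34a 1, 2 or 3 (adjusted p = 0.108, 0.0815 and 0.108, changes from -1.55 to -1.48) and held without any 1 vector sample.

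Ddit4 (REDD1), which restrains mTORC1 under stress, read 6439.6, 7601.8 and 7503.7 with vector and 2818.1, 4260.9 and 2861.0 with miR-34a. Its groups were well apart, with miR-34a 2 the nearest to the vector samples. The log2 mean went from 12.81 ± 0.133 to 11.67 ± 0.337 (SD, n = 3 each), a change of -1.14 ± 0.171 (SE, limma adjusted p = 0.0113). The call was lost without miR-34a 1 (-1.03, adjusted p = 0.0594) or miR-34a 3 (-1.04, 0.0619).

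Car9, a surface carbonic anhydrase that buffers tumor pH and a standard marker of hypoxia, read 7045.5, 4375.0 and 5311.9 with vector and 3469.4, 3490.6 and 2218.3 with miR-34a. Every miR-34a sample was lower, yet the change of -0.87 ± 0.231 (SE) missed the threshold (limma adjusted p = 0.055). It passed without vector 2 (-1.03, limma adjusted p = 0.0474), after median centring (-0.96, 0.0442), with the dimmest genes left out (0.0493) and with array weights (0.0139). Kdm3a, a histone H3K9 demethylase induced by HIF, read 2470.0, 2077.0 and 2275.2 against 1737.7, 1840.0 and 1841.5, again with no overlap. Its change of -0.33 was not called (limma adjusted p = 0.0604). It passed without vector 2 (-0.39, 0.0492), after quantile normalization (-0.35, 0.0438) or median centring (-0.42, 0.0318), with the dimmest genes left out (0.0499), with a pseudocount of 64 (0.0483) and with array weights (0.0155).

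Vegfa, the main angiogenic factor under HIF control, read 2244.7, 3158.9 and 3050.4 with vector and 2413.7, 2175.6 and 2879.7 with miR-34a, and the groups overlapped. Its change was -0.17 ± 0.162 (SE, limma adjusted p = 0.544). The dimmer Vegfa probe set did not overlap between groups, at 892.1 to 1184.5 with vector and 679.2 to 821.1 with miR-34a, and changed by -0.41 without a call (limma adjusted p = 0.0831).

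The other 9 targets all overlapped between groups and none was called. Bnip3, a receptor for removal of mitochondria, changed by -0.28. Higd1a, a mitochondrial protein of the respiratory chain, changed by -0.23, with probe sets from -0.23 to 0.29. Stc2, a secreted glycoprotein, changed by -0.21, Bhlhe40, a transcriptional repressor, by -0.17, and Mif, an inflammatory cytokine, by -0.11. Pdk1 and Pdk3, kinases that shut pyruvate dehydrogenase, changed by -0.01 and -0.03, and Ndrg1, a stress-induced growth regulator, by 0.05. Car12, another carbonic anhydrase, read 219.0, 147.0 and 151.1 with vector against 209.5, 228.5 and 206.1. Its change of 0.31 was not called (limma adjusted p = 0.224), but passed without vector 1 (0.48, 0.0105) and with array weights (0.42, 0.0139).

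The summed neutrophil markers, like Adm and Car9, were highest in vector 1 among the vector samples. That rank was common and does not set Adm and Car9 apart. Vector 1 was the highest vector sample for 24 of the 35 listed genes (68.6%), beside 49.6% of all genes. S100a9, a protein abundant in neutrophils, read 5270.3, 1384.7 and 867.6 with vector and 250.6, 185.8 and 231.2 with miR-34a, a fall of 7.89-fold (limma adjusted p = 0.0235). It was the 1 neutrophil marker of 8 that was called, and with S100a8 (change -1.41) it set most of the difference in the sums. Camp and Ltf changed by -0.18 and -0.13, whereas Csf3r, Cxcr2, Mpo and Elane changed by 0.09, 0.06, 0.07 and 0.11. Among the vector samples, every neutrophil marker but Mpo read highest in vector 1, and Mpo read lowest there. Adm ordered vectors 2 and 3 as S100a9 did, and Car9 the opposite way. Mpo and Elane, granule enzymes of immature neutrophils, read between 58.0 and 138.0 in every sample, and no marker was at 0. The part of these cells in the Adm and Car9 values was not tested.

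Of the 15 measured glycolytic genes, 2 (13.3%) were called lower and none higher, beside 5.25% and 6.50% of all genes. At an unadjusted limma p under 0.05, 4 were lower and 2 higher (all genes 11.3% and 17.0%). The median change was -0.02. Changes below 0 were seen in 8 of 15 (53.3%), in 9 (60.0%) after quantile normalization and in 10 (66.7%) after median centring, beside 45.7%, 53.0% and 62.6% of all genes. In 6 of the 15 every miR-34a sample lay under every vector sample, and in 1 above, beside 14.0% and 20.8% of all genes. Relative to the vector mean, their median was 0.12, -0.04 and -0.09 in vector samples 1, 2 and 3 and 0.02, -0.07 and -0.03 with miR-34a, and these overlapped. Vector 1 was the highest vector sample in 12 of the 15 (80.0%), beside 49.6% of all genes.

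Hk2, the hexokinase that HIF-1 and MYC induce in many tumors, carried the greatest fall. It read 5106.5, 3949.4 and 4086.8 with vector and 2711.4, 2712.9 and 2295.8 with miR-34a, with a wide gap between the groups. The log2 mean went from 12.09 ± 0.201 to 11.33 ± 0.138 (SD, n = 3 each), a change of -0.76 ± 0.126 (SE, limma adjusted p = 0.0147). The call was lost without miR-34a 1 (-0.80, adjusted p = 0.063) or miR-34a 3 (-0.68, 0.0745). Hk1, the constitutive hexokinase, read 5106.6, 4464.7 and 4090.8 against 5544.9, 5805.3 and 4804.1. It overlapped between groups and was not called (0.24 ± 0.116 SE, limma adjusted p = 0.226). Its second probe set went the other way (-0.26), and the average of the probe sets hardly changed (-0.007).

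At the phosphofructokinase step, the main control point of glycolysis, the isoforms differed. Pfkp, the platelet form common in tumors, read 2576.0, 1858.3 and 2016.2 with vector and 1667.9, 1808.6 and 1351.3 with miR-34a. The groups did not overlap, with vector 2 and miR-34a 2 close together, and the change of -0.41 was not called (limma adjusted p = 0.14). Its dimmer probe set read 961.4, 428.4 and 787.5 against 239.8, 247.9 and 210.4, a called fall of -1.50 ± 0.268 (SE, limma adjusted p = 0.0151 over all probe sets) that held in 3 of the 6 fits with a sample left out (changes from -1.84 to -1.27). Pfkm, the muscle form, overlapped between groups and changed by 0.36 without a call (limma adjusted p = 0.117), but passed without vector 1 (0.45, 0.0336) and with array weights (0.44, 0.017). Pfkl, the liver form, changed by 0.05, and Pfkfb3, which makes the activator of phosphofructokinase, by 0.16.

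Of the aldolases, Aldoa changed by -0.04 and overlapped. Aldoc read 3516.6, 2224.0 and 2140.7 with vector and 1796.0, 1927.6 and 1999.0 with miR-34a, with vector 1 well above the rest. Its groups did not overlap, but the change of -0.42 ± 0.188 (SE) was not called (limma adjusted p = 0.196). Without vector 1 it was -0.19 (limma adjusted p = 0.185). Tpi1, which interconverts the triose phosphates, changed by 0.00 ± 0.0946 (SE).

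Pgk1, the phosphoglycerate kinase on the X chromosome, read 17299.1, 15780.3 and 16499.8 with vector and 13563.6, 13255.1 and 13407.5 with miR-34a. The fall was small and even. The log2 mean went from 14.01 ± 0.0662 to 13.71 ± 0.0166 (SD, n = 3 each), a change of -0.30 ± 0.0756 (SE, limma adjusted p = 0.0463). The call was lost when any 1 of the 6 samples was left out (adjusted p from 0.059 to 0.153, changes from -0.33 to -0.27), and its other probe sets, at -0.23 and -0.19, were not called.

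Pgam1, the next enzyme, read 12876.3, 13216.9 and 13465.4 against 12748.6, 12527.2 and 12147.5. Its groups did not overlap, by a narrow margin, and the change was -0.08 (limma adjusted p = 0.527). Eno2, the neuronal enolase, was dim, at 48.8, 55.1 and 45.0 with vector and 60.3, 55.5 and 72.6 with miR-34a. Vector 2 and miR-34a 2 nearly met, and the change of 0.26 was not called (limma adjusted p = 0.171). Pkm, the pyruvate kinase gene, changed by -0.02.

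Ldha turns pyruvate into lactate, and its published link to miR-34a makes it a gene of interest here. It read 19166.2, 17875.2 and 18195.3 with vector and 16491.4, 15339.0 and 15410.5 with miR-34a. Every miR-34a sample was lower, by a log2 change of -0.23 ± 0.0774 (SE), which is 1.17-fold and did not pass (limma adjusted p = 0.108). With a variance trend and robust prior it did (adjusted p = 0.0314). Ldhb, the isoform that favours the reverse reaction, read 697.3, 649.7 and 583.9 against 660.8, 774.3 and 734.5. It overlapped between groups, with a change of 0.16 (limma adjusted p = 0.338).

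**Figure D4:**
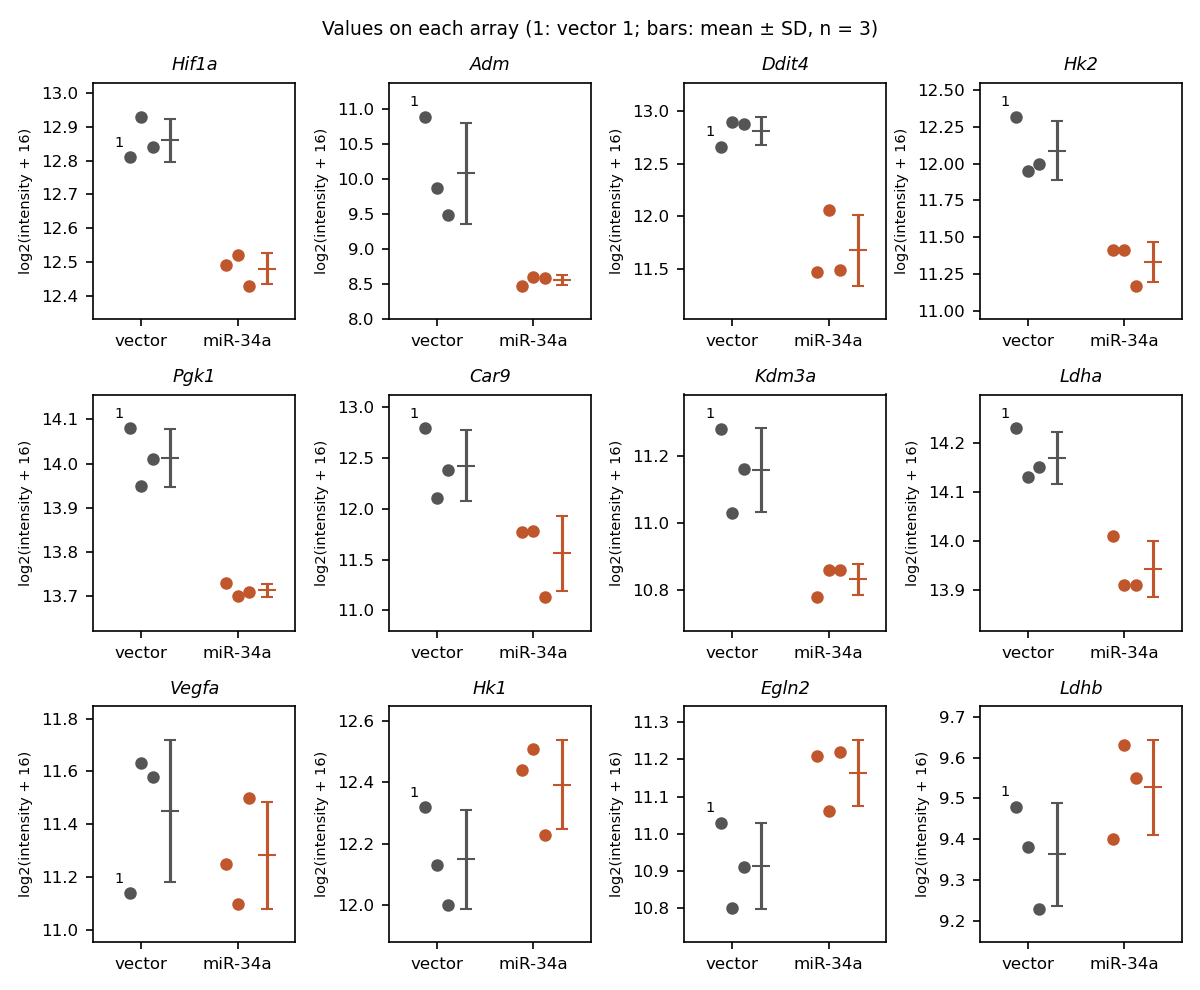
Level of 12 of the genes on each array, as log2(intensity + 16), with the group mean and SD (n = 3). Vector and miR-34a points are separate for Hif1a, Adm, Ddit4, Hk2, Pgk1, Car9, Kdm3a, Ldha and Egln2, and overlap for Vegfa, Hk1 and Ldhb.

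Over all 65 probe sets of these genes, 9 were called lower and 0 higher, beside 6.94% and 6.05% of all probe sets. The 9 were the chosen probe sets of the 5 called genes, 2 more of Hif1a, 1 of Pfkp and that of Car9. Car9 lay at the threshold, with a limma adjusted p of 0.0499 in the fit over probe sets and 0.055 in the fit over genes. Several probe sets were present for 18 genes, and in 7 of these (Arnt, Higd1a, Hk1, Ndrg1, Pfkfb3, Pfkl and Tpi1) their signs differed. None of the 7 was called. Without miR-34a 3 the count of called probe sets was 2, without miR-34a 1 it was 3, and without vector 3 or miR-34a 2 it was 5.

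Isoforms doing related work were set against each other within each array, which cancels array-wide shifts. With 3 samples a side, an exact permutation test cannot go below p = 0.1, so no pair could pass. Of the 6 pairs, 5 had groups that did not overlap and reached that smallest two-sided p (0.12 after adjustment over the pairs). Log2 Hk2 minus Hk1 was 0.00, -0.18 and 0.00 in the vector samples and -1.03, -1.09 and -1.06 with miR-34a, a change of -1.0. Ldha minus Ldhb changed by -0.39, Pfkp minus Pfkl by -0.46, Hif1a minus Epas1 by -0.40 and Aldoa minus Aldoc by 0.38, or 0.20 without vector 1. Pdk1 minus Pdk3 changed by 0.02 (exact permutation p = 0.9). Each of the other 5 pairs holds a gene that by itself was lower in every miR-34a sample: Hk2, Ldha, Pfkp, Hif1a and Aldoc. These 5 pairs are therefore not independent of the single-gene results. The share of pairs of other genes without overlap was not computed. The Hk1 and Pfkl terms rest on probe sets whose sign is opposite to that of another probe set of the gene. The Epas1 term is dim (109.7 to 123.2) and cannot be told from background, so that pair mostly restates the Hif1a change of -0.38.

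**Figure D5:**
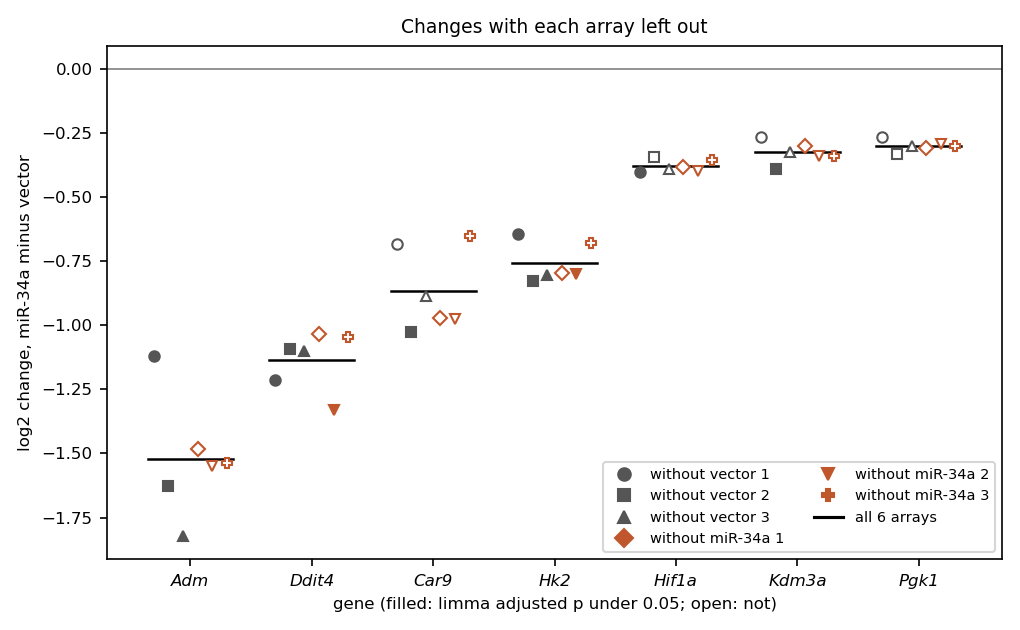
Log2 change of Adm, Ddit4, Car9, Hk2, Hif1a, Kdm3a and Pgk1 with each array left out in turn. Every point lies below 0, and that of Adm moves farthest, to -1.12 without vector 1.

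Promoter sequence was examined for the letters that HIF dimers recognise, ACGTG or GCGTG, on either strand, in the 250 bases before each RefSeq start site (GRCm38.p6). Of the 35 genes, 32 had a window, and Epas1, Ndrg1 and Bhlhe40 had none in the table. The letters occurred in 28 of the 32 (87.5%), against 41.5% of all genes with a window. Over windows, the share was 74.5% of 47 against 38.6% of 32851, and median GC content was 59.6% against 52.4%. All 5 called genes held them, as did 23 of the 27 uncalled genes with a window. The 35 genes were listed for their part in the hypoxia response or glycolysis. A share above that of all genes is therefore no independent evidence. The windows of the 5 called genes are printed 5′ to 3′ on the gene's strand, to show where these letters lie, with the letters in capitals. Hif1a is at chr12:73907617-73907866 (plus strand), Adm at chr7:110627407-110627656 (plus), Ddit4 at chr10:59951771-59952020 (minus), Hk2 at chr6:82774455-82774704 (minus) and Pgk1 at chrX:106186850-106187099 (plus).
Hif1a: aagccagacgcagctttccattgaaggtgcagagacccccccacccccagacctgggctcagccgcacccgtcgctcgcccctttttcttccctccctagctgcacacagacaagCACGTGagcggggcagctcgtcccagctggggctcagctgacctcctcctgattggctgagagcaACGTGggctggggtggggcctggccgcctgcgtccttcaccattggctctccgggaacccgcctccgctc
Adm: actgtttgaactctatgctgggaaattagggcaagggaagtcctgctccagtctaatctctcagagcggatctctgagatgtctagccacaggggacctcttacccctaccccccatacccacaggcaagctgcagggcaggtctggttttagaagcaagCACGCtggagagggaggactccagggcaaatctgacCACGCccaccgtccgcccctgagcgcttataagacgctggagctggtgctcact
Ddit4: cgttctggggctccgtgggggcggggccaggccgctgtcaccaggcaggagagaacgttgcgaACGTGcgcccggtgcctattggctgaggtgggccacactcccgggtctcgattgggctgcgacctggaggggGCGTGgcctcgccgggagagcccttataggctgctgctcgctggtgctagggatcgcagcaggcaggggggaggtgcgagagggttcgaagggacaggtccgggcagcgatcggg
Hk2: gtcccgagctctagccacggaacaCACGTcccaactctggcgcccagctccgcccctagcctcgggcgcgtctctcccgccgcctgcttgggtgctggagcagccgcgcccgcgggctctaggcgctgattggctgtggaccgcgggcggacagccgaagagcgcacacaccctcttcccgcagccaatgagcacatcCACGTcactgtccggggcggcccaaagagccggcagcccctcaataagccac
Pgk1: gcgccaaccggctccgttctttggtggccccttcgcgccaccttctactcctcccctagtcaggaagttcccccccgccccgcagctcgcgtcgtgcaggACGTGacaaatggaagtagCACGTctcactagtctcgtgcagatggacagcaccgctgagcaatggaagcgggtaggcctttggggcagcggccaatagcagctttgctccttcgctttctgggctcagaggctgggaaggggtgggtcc

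The Hif1a window held 3 matches, of which 2 overlap on opposite strands in the palindrome CACGTG, a motif also bound by MYC and USF proteins. Adm held 2 copies of GCGTG on the minus strand, starting 90 and 54 bases before the start site. Ddit4, Hk2 and Pgk1 held 2 matches each. A match of these letters is a description of the sequence, and no binding was measured.

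Among 72 other measured genes of these pathways, on a list of 90, 8 (11.1%) were called lower and 4 higher. Over all genes the shares were 5.25% and 6.50%. The median change of the 72 was -0.01. Of 9 oxygen sensing genes and HIF cofactors, Hif3a, an alpha subunit that can act as an inhibitor, and Eloc (elongin C), part of the VHL ligase, fell by 0.38 and 0.44 on the log2 scale. Both calls were lost when probe sets were averaged (-0.10 and -0.14).

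Of 44 further HIF targets, 4 were called lower and 2 higher, beside 5.25% and 6.50% of all genes. Their median change was 0.01, with 21 of 44 (47.7%) below 0, beside 45.7% of all genes. Groups did not overlap in 9 that were lower and 10 that were higher, beside 14.0% and 20.8% of all genes. Plod2, a collagen lysyl hydroxylase, read 1335.7, 1401.2 and 1311.9 with vector and 374.1, 447.4 and 390.9 with miR-34a, a 3.26-fold fall (log2 change -1.70 ± 0.0917 SE, limma adjusted p = 0.000844). Hilpda, a lipid droplet protein, read 3655.4, 3630.3 and 4467.2 against 1279.2, 1807.1 and 1436.2 (-1.38 ± 0.148 SE, limma adjusted p = 0.00545). The groups of both genes were far apart. Ero1a, an oxidase of protein folding, and Sap30, a histone deacetylase complex subunit, fell by 0.59 and 0.53 on the log2 scale. Sdc4, a heparan sulfate proteoglycan, rose by 1.34 and Maff, a small Maf transcription factor, by 0.37. The Maff call was lost after median centring (0.28, limma adjusted p = 0.0616).

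Of 19 further genes of glycolysis and pyruvate use, Pdha1 and Dlat, subunits of pyruvate dehydrogenase, fell by 0.61 and 0.41, the latter without a call when probe sets were averaged (-0.25). Pdk2, a pyruvate dehydrogenase kinase, rose by 0.53 and Pck2, the mitochondrial PEP carboxykinase, by 0.83. Plod2, Hilpda, Sdc4 and Pck2 kept their calls with each of the 6 samples left out. The other 8 did not. Hif3a, Eloc and Ero1a were called only without vector 1 or 2, Sap30 only without vector 1 or miR-34a 2, Dlat, Maff and Pdk2 only without vector 1, and Pdha1 was lost without miR-34a 1 or 3 (limma adjusted p = 0.0552 and 0.0628). Over the lost calls of these 8 genes, changes kept their sign and lay between 0.35 and 0.63 in size.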

How the data were processed

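RNA of 3 vector and 3 miR-34a samples was measured on 1-colour Affymetrix arrays. The values are intensities on a linear scale that the authors deposited for 22690 probe sets. How they were summarised and normalized is not given in the sources used here. The similar array medians were left as they are. The number of arrays limits the precision, and no detection calls were used. The design text names a larger array model than the table holds.

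Gene names came from the platform annotation, updated by Entrez identifier against RefSeq. Of the probe sets, 20393 had 1 symbol, 691 several and 1606 were not listed, and 20364 symbols were matched. The 64 control probe sets were left out. Where a gene had several probe sets annotated only to it, the one of highest mean over the 6 arrays was used.

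Deposited intensities were transformed to log2(intensity + 16) and tested two-sided in R 4.3.3 by limma 3.58.1 (lmFit, then eBayes) without covariates. Benjamini-Hochberg adjustment ran over all 12393 genes, or over 22626 probe sets in a separate fit, at 0.05. The fit was tested on simulated data. Isoform pairs used exact permutation tests in scipy 1.17.1.

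The genes, groups and other pathway and marker lists were chosen with earlier results of these data known, so they are no independent evidence. Every measured gene on the list is accounted for. Values per sample are given for called genes, genes whose groups do not overlap and 9 genes set by name (Hif1a, Epas1, Arnt, Vegfa, Car9, Ldha, Ldhb, Hk1, Hk2), and of the other pathway genes at most 12 called ones are named. Car12 and the single markers given with values were picked after their values were seen. Eno1 with Eno2 could not be compared. No genome or protein sequence was used, so miR-34a sites in transcripts were not analysed here. Alternatives covered scaling, pseudocount, low genes, probe set rule, variance prior, array weights, replicate block, threshold and each sample left out.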

Additional observations from a re-analysis of the deposited data

How the results depend on the processing

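The 5 called genes kept their direction in each of the 15 alternatives, but the count of calls did not hold in all. Of the uncalled genes on the list, 12 changed sign in at least 1 alternative, the greatest change among them being 0.242 in size. The 5 genes lower became 2 with a replicate block (Ddit4 and Hk2) and 0 at an adjusted p under 0.01. They ranged from 0 to 5 with 1 sample left out, when called genes higher ranged from 0 to 2 and called probe sets, 9 in all, from 2 to 12. With array weights 5 genes were called higher (Egln2, Car12, Hk1, Pfkm and Eno2) and 7 lower. Over all genes, 651 lower and 805 higher calls became 272 and 250 with the replicate block, 1319 and 1919 with array weights, and 128 and 98 without miR-34a 3, the lowest of the fits with a sample left out. Median centring moved the glycolytic median from -0.02 to -0.115 and the HIF target median from -0.19 to -0.285, with that of all genes going from 0.024 to -0.071. Adm was not called with a variance trend and robust prior (adjusted p = 0.0568), and Pgk1 was not called with a pseudocount of 1 (0.0538) or the mean of all probe sets (0.0672), by which Pfkp was (0.0274). The cause of these shifts was not tested. Same-numbered samples did not deviate together (correlations -0.168, -0.094 and -0.081), so the replicate numbers were taken as names. Without detection calls, the dim Epas1, Eno2 and lesser Ldhb probe sets cannot be told from background.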
